A study of Sus scrofa with 15 samples.

Results

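PLK4 and KIF20B, a kinase gene of centriole assembly and a kinesin gene of cytokinesis, were followed through 5 plasmid groups of a pig kidney cell line. They are 2 of the 16660 genes in the count table, and both were among the 11553 genes that passed a filter on low counts, a mean CPM of at least 2, where CPM is a gene's count scaled to a common library total. The 2 genes were selected on their lower counts in the Tg1 libraries than in the NC libraries. That difference, and every other one that involves Tg1, is therefore given for these 2 genes as a description without a test. KIF20B is identifier ENSSSCG00000010457 in the table. PLK4 is the name that the study's own tables give to identifier ENSSSCG00000009077, whereas the names table used here, which follows another Ensembl release, calls that identifier HSPA4L, the gene of a heat shock protein, and gives PLK4 an identifier that is not among the rows analysed. Of 1384 identifiers named in both sources, 26 carried different symbols. The values called PLK4 below belong to ENSSSCG00000009077 and rest on the study's name for it.

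The cells were LLC-PK1, an established epithelial line from the proximal tubule of a pig kidney. They received 3 µg per well of a plasmid with a CAG promoter and pH11 sequence, which carried no PKD2 (NC), wild-type human PKD2 (WT), or human PKD2 with the change A1532T, D511V in the protein (Tg1), T1967G, L656W in the protein (Tg2), or C2224T, R742X in the protein (Tg3). PKD2 encodes polycystin-2, a calcium-permeable channel whose mutation causes autosomal dominant polycystic kidney disease. RNA was taken 48 h after this transient transfection from 3 wells per plasmid, which gave 15 libraries of 20216200 to 26132196 counts. All groups thus shared the vector, the line and the transfection. The human gene came on top of the pig's own copies, and its level was not analysed here. Since the wells were of 1 cell line and nothing states that they were independent cultures, the p-values measure only the spread between these wells.

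Polo-like kinase 4, the product of PLK4, starts the formation of a new centriole beside each existing one, and its amount limits how many are made. KIF20B, also known as MPHOSPH1, is a plus-end-directed kinesin that acts late in mitosis, at the spindle midzone and in the last steps of cell separation. Transcripts of both genes are known to vary with the cell cycle, and centrioles also form the basal body of the primary cilium, where polycystin-2 acts in tubule cells.

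Markers of tubule epithelium were present throughout. Of 20 listed markers of renal tubule epithelium, 17 had a row, all 17 were detected in every library, and their summed level was 4745 to 5143 CPM, led by KRT8. Of 17 markers of fibroblasts, endothelium and leukocytes, 14 had a row, 5 passed the filter and 3 to 6 were at 0 in each library, while COL1A2, a collagen gene, was at 849.8 to 1023 CPM and made up most of that list's sum of 891.8 to 1063 CPM. PECAM1 and PTPRC, defining genes of endothelium and leukocytes, had mean levels of 1.07 and 0.0167 CPM, and VWF had no row. Library WT replicate 2 stood apart from the other WT libraries. Its counts differed from those of WT replicates 3 and 1 with a chi-square of 46.6 and 25.8 per degree of freedom. The other pairs of replicates had 2.9 to 20.8. The values of both genes in comparisons with WT are also given without WT replicate 2.

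PLK4 was highest in cells with the empty plasmid and lowest in cells with Tg1. The 3 NC libraries held 48.2, 43.6 and 45.2 CPM after TMM normalization, and the 3 WT libraries held 41.9, 40.2 and 43.4 CPM. The Tg1 libraries held 36.9, 36.4 and 34.1 CPM. The WT libraries lay below all NC libraries, by a narrow margin at the nearest pair, and the Tg1 libraries lay below every other library. The Tg2 libraries held 39.3, 38.8 and 40.1 CPM. The Tg3 libraries held 41.5, 40.4 and 43.5 CPM. Tg2 thus sat between Tg1 and WT without touching either group, and Tg3 overlapped with WT. The group means were 45.7 ± 2.32 CPM for NC, 41.8 ± 1.60 for WT, 41.8 ± 1.53 for Tg3, 39.4 ± 0.623 for Tg2 and 35.8 ± 1.49 for Tg1 (SD, n = 3 each). These levels rested on 800 to 1172 counts per library.

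KIF20B followed nearly the same order. It was measured at 56.6, 55.0 and 55.1 CPM in NC, and at 50.0, 47.6 and 54.7 CPM in WT. In Tg1 it was at 47.2, 43.5 and 43.4 CPM. The NC libraries were close together, and WT replicate 3 came within reach of them while the other WT libraries were lower. In Tg2 the level was 44.1, 45.2 and 47.3 CPM. In Tg3 it was 47.1, 47.0 and 52.6 CPM. The Tg1 and Tg2 libraries overlapped, and so did Tg3 with WT, with Tg2 and with Tg1. The means were 55.6 ± 0.907 CPM for NC, 50.8 ± 3.59 for WT, 48.9 ± 3.19 for Tg3, 45.5 ± 1.62 for Tg2 and 44.7 ± 2.18 for Tg1 (SD, n = 3 each), from 930 to 1442 counts per library.

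**Figure D1:**
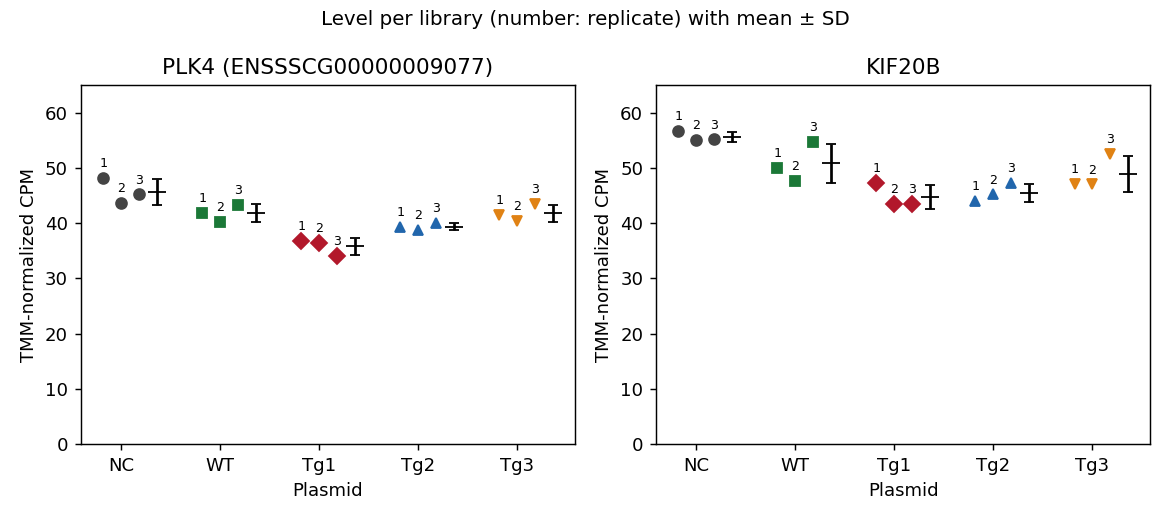
Level of PLK4 (left) and KIF20B (right) in TMM-normalized CPM (y axis) by plasmid (x axis); each symbol is 1 library with its replicate number, and the bar beside each group gives the mean ± SD of 3 libraries. All 12 libraries with a PKD2 plasmid sit below all 3 NC libraries in both panels, with Tg1 lowest for PLK4 and Tg1 and Tg2 overlapping for KIF20B.

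For both genes, all 12 libraries with a PKD2 plasmid lay below all 3 NC libraries, which held for 0.597% of the 11553 genes tested. As the Tg1 and NC libraries chose the genes, that count describes the choice. Over the 9 libraries of WT, Tg2 and Tg3, which took no part in it, all 9 lay below NC for both genes, as they did for 0.987% of genes, although the NC libraries were the same. The separation was narrow for PLK4, at 43.6 CPM in the lowest NC library against 43.5 CPM in the highest other one, and for KIF20B, at 55.0 against 54.7 CPM. It depended on the scaling. With CPM of the library totals and no further normalization, WT replicate 3 lay above the lowest NC library for both genes, at 45.2 against 43.7 CPM for PLK4 and 57.0 against 55.2 CPM for KIF20B, and 11 of the 12 libraries lay below. With the size factors of DESeq2 all 12 lay below.

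Against NC, the mutant Tg1 showed PLK4 at 78.4% of its NC level, a log2 fold change of -0.35 ± 0.05 (SE), and KIF20B at 80.4%, a log2 fold change of -0.32 ± 0.06. These are the values that chose the genes. A gene was called changed in a comparison where the Benjamini-Hochberg adjusted p of edgeR's quasi-likelihood test was at most 0.05 and the absolute log2 fold change at least 0.26. By that rule 1.19% of genes were called between Tg1 and NC, 1.01% lower in Tg1 and 0.182% higher, with 16 to 83 genes called on leaving out each library in turn, and a log2 fold change of -0.26 or below was found for 4.73%.

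The NC libraries also took part in choosing the genes, so the p-values and calls of these 2 genes against NC are descriptions. In Tg2, KIF20B was at 81.9% of its NC level, with a log2 fold change of -0.29 ± 0.06 (95% interval -0.41 to -0.16) and an adjusted p of 0.0168 by edgeR's quasi-likelihood test. The genes called made up 8.43% of those tested, 3.7% lower and 4.73% higher. PLK4 was at 86.3% of NC, with a log2 fold change of -0.21 ± 0.05 (95% interval -0.32 to -0.11) and an adjusted p of 0.0219 in the same edgeR test, which passed the threshold for p and not the one for fold change. All 3 Tg2 libraries lay below all 3 NC libraries for both genes, as for 18% of genes, and the exact two-sided permutation test gave p = 0.1 for each, the smallest value that 3 against 3 libraries allow. The genes called in this comparison were 0 without NC replicate 3 or Tg2 replicate 2, 24 without NC replicate 1, 48 without Tg2 replicate 1 and 1878 without Tg2 replicate 3. KIF20B was called by DESeq2 too, and by edgeR with the size factors of DESeq2 and without the filter on low counts. The same held with only the groups compared and with the replicate number as a block. The call of KIF20B was lost on leaving out Tg2 replicate 1, Tg2 replicate 2, NC replicate 1 or NC replicate 3, with adjusted p of 0.0737, 0.0687, 0.0616 and 0.0768 in edgeR. Its log2 fold change stayed between -0.32 and -0.27 in all 6 fits that left out 1 library. Over the same fits PLK4 lay between -0.24 and -0.17, with an adjusted p of 0.0196 to 0.0853 in edgeR.

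The estimates for WT and Tg3 against NC were nearer to 0 than those for Tg2. For WT against NC, PLK4 had a log2 fold change of -0.13 ± 0.05 (95% interval -0.23 to -0.020) and KIF20B one of -0.13 ± 0.06 (95% interval -0.26 to -0.0042), each with an adjusted p of 1.00 in edgeR's test. No gene was called in that comparison (0% of genes), while 524 had an unadjusted p under 0.05 and DESeq2 called 10. Without WT replicate 2 the log2 fold changes were -0.098 for PLK4 and -0.085 for KIF20B. For Tg3 against NC, PLK4 had a log2 fold change of -0.13 ± 0.05 (95% interval -0.23 to -0.019; adjusted p = 0.223 in edgeR) and KIF20B one of -0.18 ± 0.06 (95% interval -0.31 to -0.058; adjusted p = 0.173 in edgeR). Again edgeR called 0% of genes, with 2089 at an unadjusted p under 0.05, and DESeq2 called 45. The libraries of neither comparison overlapped for the 2 genes, as for 4.69% of genes that were lower in WT and 13.9% that were lower in Tg3. All comparisons with NC share the same 3 NC libraries, so their values are not independent of one another or of the one that chose the genes.

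Comparisons without NC and Tg1 used no library of the choosing contrast, Tg1 against NC, though for KIF20B the limit given above for Tg2 remains. No difference of either gene passed both thresholds there. Between Tg2 and WT, KIF20B had a log2 fold change of -0.16 ± 0.06 (95% interval -0.29 to -0.032) with an adjusted p of 0.0836 in edgeR, and without WT replicate 2 these were -0.20 ± 0.06 and 0.0234, still under the fold-change threshold. PLK4 had one of -0.086 ± 0.050 (95% interval -0.19 to 0.022; adjusted p = 0.238 in edgeR), and of -0.11 ± 0.06 without WT replicate 2 (adjusted p = 0.134 in edgeR). Neither gene was among the 5.92% of genes that were called (2.61% lower in Tg2 and 3.31% higher). For both genes all Tg2 libraries lay below all WT libraries, as for 12.4% of genes. The genes called between Tg2 and WT were 0 without WT replicate 3, Tg2 replicate 1 or Tg2 replicate 2, 1 without WT replicate 1, 1878 without Tg2 replicate 3 and 2421 without WT replicate 2. Between Tg3 and WT, the log2 fold change was 0.00051 ± 0.050 for PLK4 (95% interval -0.11 to 0.11; adjusted p = 0.995 in edgeR), and its sign turned with the size factors of DESeq2. For KIF20B it was -0.054 ± 0.059 (95% interval -0.18 to 0.073; adjusted p = 0.613 in edgeR). Both intervals lie within a log2 fold change of 0.26 in either direction. Between Tg3 and Tg2 the log2 fold changes were 0.087 ± 0.050 for PLK4 (95% interval -0.021 to 0.19) and 0.10 ± 0.06 for KIF20B (95% interval -0.023 to 0.23), both with an adjusted p of 0.822 in edgeR. The libraries of Tg3 lay above those of Tg2 for PLK4, as for 6.05% of genes, and overlapped for KIF20B. No gene was called between Tg3 and WT or between Tg3 and Tg2 (0% of genes in each), where 2215 and 673 genes had an unadjusted p under 0.05, and DESeq2 called 108 and 0. Without WT replicate 2, 1321 genes were called between Tg3 and WT, and the log2 fold changes were -0.027 for PLK4 and -0.098 for KIF20B (adjusted p = 0.768 and 0.288 in edgeR).

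Set beside the other mutants, as a description, Tg1 had PLK4 lower than WT by a log2 fold change of -0.22 ± 0.05, and Tg2 and Tg3 had it higher than Tg1 by 0.14 ± 0.05 and 0.23 ± 0.05. KIF20B was lower in Tg1 than in WT by -0.19 ± 0.06, and without WT replicate 2 the differences from WT were -0.25 for PLK4 and -0.23 for KIF20B. KIF20B was higher in Tg2 and Tg3 than in Tg1 by 0.026 ± 0.060 and 0.13 ± 0.06, and the sign of the first turned without Tg2 replicate 3, at -0.0017. For PLK4, Tg1 thus stood below the other mutants, while for KIF20B the Tg1 and Tg2 libraries were mixed.

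**Figure D2:**
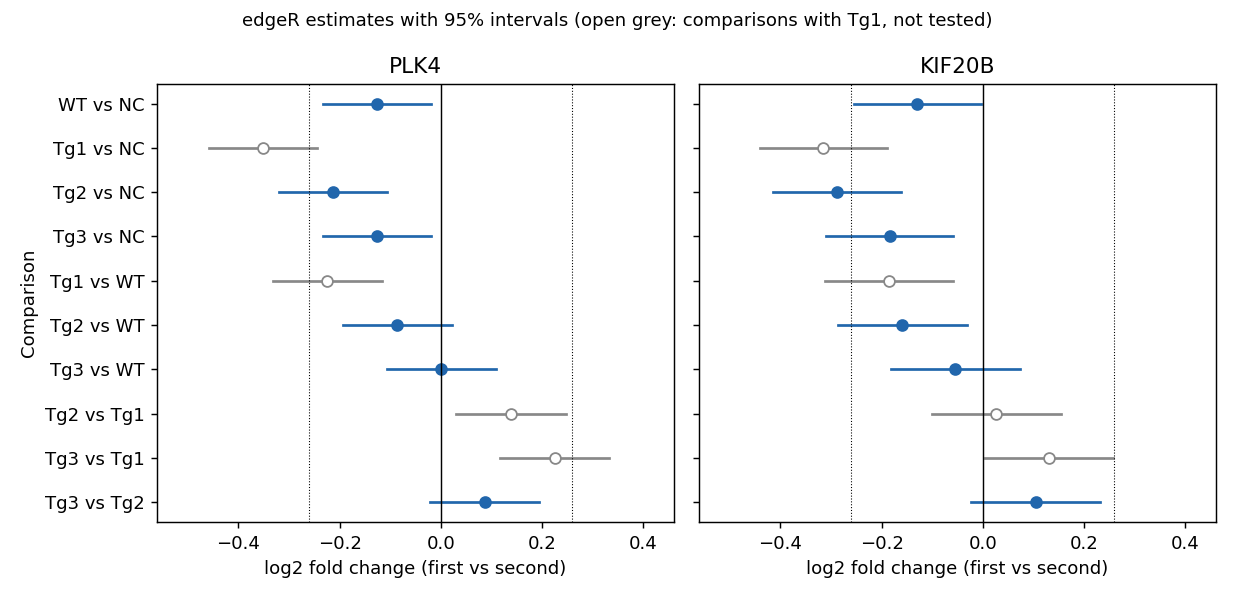
Log2 fold change of PLK4 (left) and KIF20B (right) in each comparison (y axis), as edgeR's estimate (point) with its 95% interval (line); open grey points are comparisons with Tg1, which were not tested, and dotted lines mark a log2 fold change of 0.26 in either direction. Each estimate against NC is below 0, and those between WT, Tg2 and Tg3 lie between -0.16 and 0.10.

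The partners of PLK4 in building centrioles had estimates of both signs. CEP152, the scaffold that brings PLK4 to the centriole, was at 26.1 ± 5.26 CPM in NC and 27.2 ± 4.04 CPM in Tg1 (SD, n = 3), a log2 fold change of 0.059 ± 0.196. SASS6, which forms the cartwheel, had one of -0.22 ± 0.10 (adjusted p = 0.235 in edgeR). STIL, a substrate of PLK4 that recruits SASS6, had one of -0.11 ± 0.06, and CENPJ, which sets centriole length, one of -0.046. In Tg2 and Tg3 against NC the log2 fold changes were 0.38 and 0.26 for CEP152, -0.017 and 0.033 for SASS6, -0.062 and -0.078 for STIL, and -0.048 and -0.020 for CENPJ. None of these 4 passed the test in Tg1, Tg2 or Tg3. CEP192 had no row under that symbol and was not analysed here.

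Of 34 other genes listed for centriole assembly, 31 were tested. In Tg1 against NC, 24 were lower and 7 higher, 0 were called, 8 of the lower ones had an unadjusted p under 0.05, as did 11.1% of all genes, and DESeq2 called 0. Their median log2 fold change was -0.10, against 0.0034 over all genes. In Tg2 against NC, 22 were lower and 9 higher, with a median of -0.078 against -0.0066 over all genes. CEP85, which limits centrosome separation and takes part in centriole assembly, fell by 0.46 on the log2 scale (adjusted p = 0.0459 in edgeR). CNTROB, a daughter centriole protein, fell by 0.41 (adjusted p = 0.0402 in edgeR), and SPICE1, needed for centriole duplication, fell by 0.29 (adjusted p = 0.0492 in edgeR). These were the 3 calls among the 31 genes, all lower, beside 3.7% of all genes called lower in that comparison. In Tg3 against NC 22 were lower and 9 higher, with 0 calls by edgeR and by DESeq2 and 6 genes lower at an unadjusted p under 0.05, as were 9.34% of all genes. Of 16 pericentriolar genes, 15 were lower in Tg1 with 0 calls by either tool and 4 at an unadjusted p under 0.05. In Tg2, 9 were lower and 7 higher, and CEP290, a ciliary transition zone protein, and CEP131, a centriolar satellite protein, fell by 0.27 and 0.41 on the log2 scale (adjusted p = 0.0283 and 0.0470 in edgeR). The Tg2 calls of both lists were 0 without NC replicate 1, NC replicate 3, Tg2 replicate 1 or Tg2 replicate 2. The same held for the Tg2 calls of the cytokinesis, G2 and M phase and S phase lists below. The pericentriolar calls were 4 without NC replicate 2, and the share of all genes called in that fit is not given here.

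Of the other polo-like kinases, PLK1 had lower values in Tg1 and Tg2 than in NC, and PLK2 and PLK3 higher ones, without a call. PLK1, the mitotic kinase of the family, was at 45.1 ± 0.611 CPM in NC, 40.0 in Tg1 and 39.9 in Tg2, with log2 fold changes of -0.17 and -0.18 (adjusted p = 0.230 and 0.116 in edgeR). PLK2 and PLK3, both stress-responsive kinases, had log2 fold changes of 0.25 and 0.23 in Tg1 and of 0.25 and 0.32 in Tg2. For PLK2 the estimate was larger in WT against NC, at 0.52 ± 0.16 (adjusted p = 0.790 in edgeR). WT replicates 1, 2 and 3 held 282.8, 173.5 and 292.8 CPM of it. None of the 3 kinases passed the test in Tg1 or Tg2, and PLK3 in Tg2 came nearest (adjusted p = 0.0583 in edgeR). The 13 genes of the response to abnormal centrosome number included 0 calls by edgeR in Tg1, Tg2 or Tg3 against NC, with 4, 3 and 4 lower and 1, 3 and 3 higher at an unadjusted p under 0.05. Over all genes these shares were 11.1%, 16.9% and 9.34% lower and 8.8%, 18.3% and 8.74% higher. CDKN1A, an inhibitor of cyclin-dependent kinases, had a log2 fold change of -0.12 in Tg2 (adjusted p = 0.223 in edgeR).

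Genes that act beside KIF20B at the end of mitosis had estimates of both signs. KIF20A, the closest kinesin of the family and a carrier of the chromosomal passenger complex to the midzone, was at 91.8 ± 6.87 CPM in NC and 92.7 CPM in Tg1, a log2 fold change of 0.014, and had one of 0.18 in Tg2 (adjusted p = 0.120 in edgeR). KIF23, the motor of centralspindlin, had log2 fold changes of -0.18 in Tg1 and -0.094 in Tg2 (adjusted p = 0.0805 and 0.222 in edgeR). PRC1, which bundles the midzone microtubules, had -0.17 in Tg1 and -0.19 in Tg2 (adjusted p = 0.0909 and 0.0294 in edgeR). KIF20A and KIF20B thus had estimates of opposite sign in Tg2, and PRC1 passed the p threshold there without reaching the fold-change threshold. ANLN, the scaffold of the contractile ring, was lower in Tg1 by a log2 fold change of -0.22 (adjusted p = 0.0235 in edgeR, under the fold-change threshold), and had one of -0.0073 in Tg2. ECT2, which activates RhoA at the cleavage site, had -0.14 in Tg1 and 0.014 in Tg2, and CEP55, which recruits the abscission machinery, had -0.29 in Tg1 (adjusted p = 0.215 in edgeR) and -0.098 in Tg2.

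Of 38 other cytokinesis genes tested, 25 were lower and 13 higher in Tg1 than in NC, with a median log2 fold change of -0.094. ROCK2, a kinase that drives myosin contraction, was the single call, beside 1.01% of all genes called lower, and fell by 0.41 (adjusted p = 0.0101 in edgeR), a call lost without NC replicate 1, NC replicate 3 or Tg1 replicate 2. In Tg2, 22 were lower and 16 higher. SEPTIN9, a filament-forming GTPase, and ZFYVE26, a lipid-binding protein of the midbody, rose by 0.32 and 0.27 (adjusted p = 0.0286 and 0.0450 in edgeR), beside 4.73% of all genes called higher, and no gene of the list was called lower. On leaving out 1 library, SEPTIN9 was called in 2 of 6 fits and ZFYVE26 in 0. Among 34 other kinesin genes, 24 were lower and 10 higher in Tg1, with a median of -0.099. KIF21A, which restrains microtubule growth, was the single call here too, beside the same 1.01%, and fell by 0.36 (adjusted p = 0.0188 in edgeR), a call held in none of the 6 fits that left out 1 library. In Tg2, 21 were lower and 13 higher and edgeR called 0, with 7 lower and 3 higher at an unadjusted p under 0.05 (16.9% and 18.3% of all genes), and DESeq2 called 1.

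Both genes had levels that varied with those of the listed G2 and M phase genes. Over the 15 libraries the log2 CPM of PLK4 and KIF20B correlated with r = 0.898, with r = 0.934 over the 9 libraries of WT, Tg2 and Tg3, and with r = 0.748 when the group means were taken out. The libraries share their plasmid groups and normalization, so these values are descriptions. With the mean log2 CPM of 42 G2 and M phase genes r was 0.841 for PLK4 and 0.846 for KIF20B, and over the 9 libraries outside the choosing contrast 0.885 and 0.791. With that of 36 S phase genes it was -0.266 and -0.52, and over the 9 libraries -0.574 and -0.693. With that of the 31 centriole assembly genes it was 0.738 and 0.724 over 15 libraries, and 0.0919 and 0.152 over the 9. With that of the 38 cytokinesis genes it was 0.503 and 0.259 over 15 libraries, and -0.126 and -0.358 over the 9. The first principal component of all genes, which held 48.5% of the variance, had r = -0.504 with PLK4 and r = -0.738 with KIF20B, and -0.804 and -0.885 over the 9 libraries. The values over 15 libraries include the Tg1 and NC libraries that chose the genes. The scatter of the 2 genes shows the libraries in a narrow band from Tg1 to NC.

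**Figure D3:**
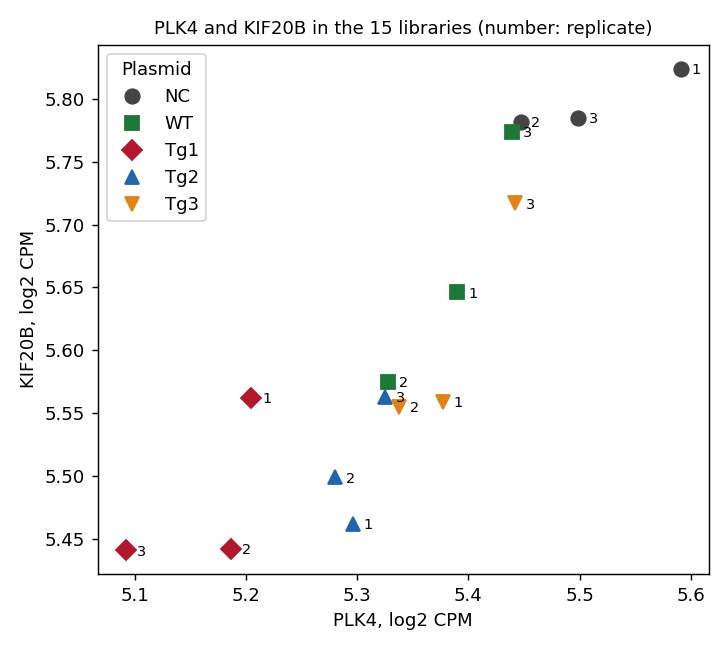
Level of KIF20B (y axis) against PLK4 (x axis) in each of the 15 libraries, both as TMM-normalized log2 CPM, with symbols for the plasmids and the replicate number beside each. The points form 1 band (r = 0.898), with Tg1 at the lower left and NC at the upper right.

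By the highest correlation of log2 CPM over the 15 libraries, the genes most like PLK4 were HMMR (r = 0.93), TRIM37 (0.926), ROCK1 (0.924), PRKAR2A (0.916) and ERMP1 (0.904). HMMR is a spindle-associated protein, TRIM37 a ubiquitin ligase that restrains centriole assembly, ROCK1 a kinase of the same kind as ROCK2, and PRKAR2A a regulatory subunit of protein kinase A. Those most like KIF20B were CSPP1 (r = 0.94), G2E3 (0.939), PHACTR2 (0.936), HMMR (0.935) and BAZ2B (0.934). CSPP1 is a protein of centrosomes and cilia, and G2E3 is a ubiquitin ligase named for its rise in the G2 and M phases. In Tg1 against NC, PRKAR2A fell by 0.36 (adjusted p = 0.00454 in edgeR), and G2E3, PHACTR2 and BAZ2B fell by 0.38, 0.43 and 0.39. On leaving out 1 library, PRKAR2A was called in 6 of 6 fits, BAZ2B in 2, PHACTR2 in 1 and G2E3 in 0. TRIM37, ROCK1, ERMP1 and CSPP1 had log2 fold changes of -0.16 to -0.19, which did not reach the fold-change threshold. Likeness was ranked on these same libraries, so the values for these genes carry no support of their own.

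The summed level of the listed G2 and M phase genes was lower than NC in the groups where the means of PLK4 and KIF20B were lowest. It was 2397, 2463 and 2381 CPM in NC, against 2228, 2169 and 2177 CPM in Tg1. It was 2285, 2268 and 2269 CPM in Tg2. Both of these groups lay below all NC libraries. The sum was 2386, 2230 and 2435 CPM in WT, with WT replicate 2 the lowest, and 2372, 2349 and 2439 CPM in Tg3, and both of these overlapped with NC.

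In Tg1 against NC, 40 of the 42 genes were lower and 2 higher, with a median log2 fold change of -0.14 against 0.0034 over all genes. The calls were 2, beside 1.01% of all genes called lower. ASPM, a spindle pole protein, fell by 0.38 (adjusted p = 0.0260 in edgeR) and HMMR by 0.27 (adjusted p = 0.0366 in edgeR), and neither was called in any of the 6 fits that left out 1 library. TOP2A, a topoisomerase of dividing cells, had a log2 fold change of -0.22 (adjusted p = 0.0455 in edgeR), short of the fold-change threshold. In Tg2, 34 were lower and 8 higher, with a median of -0.085. ASPM and CCNB2, a mitotic cyclin, fell by 0.29 each (adjusted p = 0.0309 and 0.0219 in edgeR), the 2 calls of the list beside 3.7% of all genes called lower, and CCNB1, the main mitotic cyclin, had -0.20 (adjusted p = 0.0185 in edgeR, under the fold-change threshold). The list held 0 calls in Tg2 also without NC replicate 2. CDK1, the kinase that these cyclins activate, had log2 fold changes of -0.12 in Tg1 and -0.021 in Tg2, with no call. In WT 32 were lower and 10 higher with a median of -0.047, which was -0.010 without WT replicate 2, and in Tg3 23 were lower and 19 higher with a median of -0.0041. No gene of the list was called in WT or Tg3 by edgeR, and DESeq2 called 0 in Tg3.

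As a sum, the listed S phase genes stood higher than NC in Tg2 and Tg3. Their summed level was 2038, 2151 and 1966 CPM in NC, 2382, 2366 and 2251 CPM in Tg2, and 2266, 2405 and 2267 CPM in Tg3. All Tg2 and Tg3 libraries lay above all NC libraries. The sums were 2015, 2122 and 2158 CPM in Tg1 and 1975, 2098 and 2025 CPM in WT, which overlapped with NC. Of 36 genes, 35 were higher in Tg2 than in NC and 8 of them were called, beside 4.73% of all genes, with a median log2 fold change of 0.18. FEN1, which trims Okazaki fragments, rose by 0.46 (adjusted p = 0.0212 in edgeR), and ORC1, which marks replication origins, by 0.40 (adjusted p = 0.0164 in edgeR). CDC25A, a phosphatase that opens S phase, rose by 0.32 and PCNA, the sliding clamp of the polymerase, by 0.31 (adjusted p = 0.0195 and 0.0219 in edgeR). In Tg3, 34 were higher with a median of 0.19 and 0 calls by edgeR, and DESeq2 called 1, beside 45 over all genes. In Tg1, 26 were higher and 10 lower, with a median of 0.049 and 0 calls by either tool. The S phase calls in Tg2 were 0 without NC replicate 1, NC replicate 3, Tg2 replicate 1 or Tg2 replicate 2. They were 14 without Tg2 replicate 3, where 1878 of the 11553 genes were called in either direction. Without NC replicate 2 they were 11, and the share of all genes called in that fit is not given here.

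Against WT in place of NC, 34 of the 36 S phase genes were higher in Tg2 with 11 called, beside 3.31% of all genes called higher, and 36 of 36 were higher in Tg3 with 0 called by edgeR. Without WT replicate 2, 15 were called in each, where 2421 and 1321 of the 11553 genes were called in either direction. In Tg2, 18 were called without Tg2 replicate 3, and 0 without WT replicate 1, WT replicate 3, Tg2 replicate 1 or Tg2 replicate 2. For the G2 and M phase list, 30 of 42 were lower in Tg2 than in WT. The single call, beside 2.61% of all genes called lower, was CDC25B, a phosphatase of mitotic entry named here because the count is 1. That call was lost on leaving out any of the same 4 libraries. A fit of only the Tg2 and WT libraries called 0 genes at all, which ends these calls. In these bulk libraries, fewer cells in a phase and less RNA per cell cannot be told apart. The part of the cell cycle transcripts in the levels of PLK4 and KIF20B was not tested.

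Tubule markers had a median log2 fold change of -0.20 against NC in both Tg2 and Tg3, and of -0.072 in Tg1, where KIF20B was lowest. In Tg2, 12 of the 17 markers were lower and 5 higher than in NC, and 6 were called lower and 1 higher, beside 3.7% and 4.73% of all genes. As no gene at all was called in that comparison without NC replicate 3 or Tg2 replicate 2, these calls were lost too without either. The names given here were chosen after their values were seen. SLC34A1, a sodium-phosphate cotransporter of the proximal tubule, fell by 0.46, LRP2 and CUBN, its endocytic receptors, fell by 0.35 and 0.33, and CDH1, E-cadherin, rose by 0.30 (adjusted p = 0.0210, 0.0233, 0.0266 and 0.0286 in edgeR). In Tg1 against NC, 10 were lower and 7 higher with a median of -0.072 and 0 calls, with 3 genes in each direction at an unadjusted p under 0.05 (11.1% and 8.8% of all genes were). In Tg3 12 were lower with a median of -0.20 and 0 calls, 8 of them at an unadjusted p under 0.05 (9.34% of all genes were). The summed level of the list overlapped between NC, at 4798, 4813 and 4866 CPM, and Tg2, at 4828, 4745 and 5023 CPM, and KRT8 alone was at 2138 to 2497 CPM over the libraries. The part of this shift in the values of PLK4 and KIF20B was not tested.

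**Figure D4:**
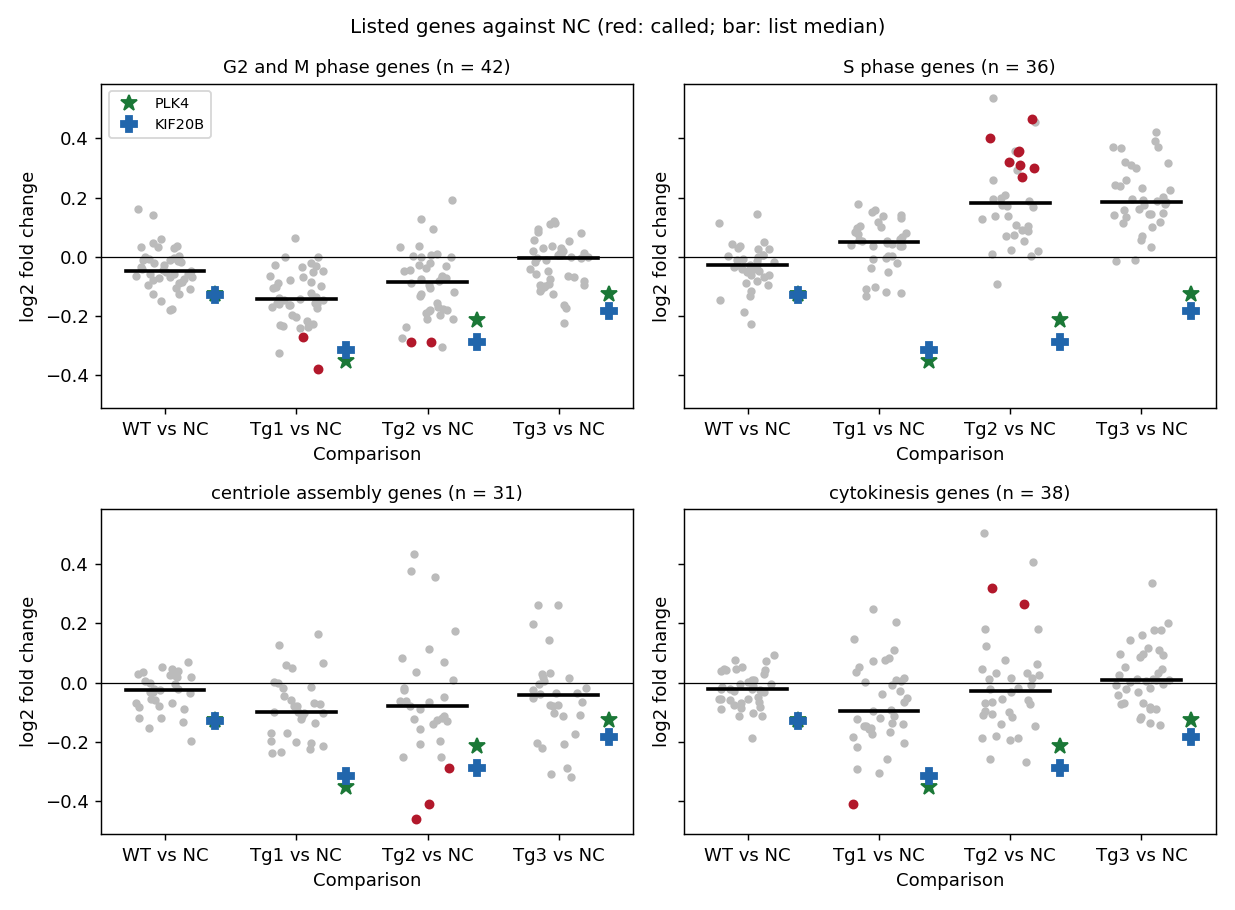
Log2 fold change against NC (y axis) of the genes of 4 lists in each comparison (x axis), 1 point per gene, with genes called by edgeR in red, the list median as a bar, and PLK4 (star) and KIF20B (cross) beside each column. PLK4 and KIF20B were selected on the Tg1 and NC libraries and are drawn for orientation. The S phase median is above 0 in Tg2 and Tg3, at 0.18 and 0.19.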

How the data were processed

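LLC-PK1 cells were transfected with 5 plasmids, and poly(A) RNA of 3 wells each was sequenced. The authors quantified reads with Salmon against the Ensembl release 98 pig cDNA set and deposited raw whole-number counts per gene. How transcripts were summed to genes is not given in the sources used here. The authors tested with DESeq2.

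Groups and replicate numbers came from the labels. Genes with a mean of at least 2 CPM were kept (11553 of 16660 genes, 99.8% of counts). TMM normalization and edgeR's quasi-likelihood test (edgeR 4.0.16, R 4.3.3) were run in 1 model of all 15 libraries, and p-values were adjusted over all genes tested by the Benjamini-Hochberg method. A gene was called at an adjusted p of at most 0.05 and an absolute log2 fold change of at least 0.26, the thresholds of the study's methods. Symbols came from the study's tables and the names table given. The fits were tested on simulated data.

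Genes were named by role in the centriole, cytokinesis or the cell cycle, as up to 3 called genes of the smallest p per list in Tg1 or Tg2 against NC, and as the 5 most alike per member. A gene that this rule names is not reported here. The members and lists were chosen with earlier results of these data known. Alternatives were DESeq2 1.42.0, its size factors, no filter, only the groups compared, the replicate number as a block, no fold-change threshold and leaving out each library. Leaving out WT replicate 2 for the lists was chosen after seeing the data. The deviations of same-numbered libraries correlated with r over 0.1 in each of 3 pairs for WT and NC (0.18, 0.498 and 0.407), and in every other comparison at least 1 pair was at or below 0.1, with all 3 positive for Tg3 against NC and against WT. Whether wells were handled in sets is not given. No sequences were analysed.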

Additional observations from a re-analysis of the deposited data

How the results depend on the processing

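The log2 fold changes of PLK4 and KIF20B kept their sign in every comparison and alternative run except in Tg3 against WT and for KIF20B in Tg2 against Tg1, which was -0.0017 without Tg2 replicate 3. In Tg3 against WT, PLK4 was -0.000973 with DESeq2 and -0.00138 with its size factors, and on leaving out each library it ranged from -0.029 to 0.029, and KIF20B from -0.11 to 0.0041. KIF20B in Tg2 against NC ranged from -0.32 to -0.27 and was called in 2 of 6 such fits. With DESeq2 the genes called were 10 for WT, 243 for Tg1, 1252 for Tg2 and 45 for Tg3 against NC, and 1184 for Tg2 and 108 for Tg3 against WT. With the replicate block they were 246 for Tg1, 1624 for Tg2 and 11 for Tg3 against NC, and 1578 for Tg2 and 111 for Tg3 against WT. The replicate block changed no call of PLK4 or KIF20B. As a hint on the pairing, 5 of 6 libraries of WT and NC deviated most like the one of their own number, and 1 to 4 of 6 in the other comparisons. With no fold-change threshold the counts were 264 for Tg1 and 1643 for Tg2 against NC and 1099 for Tg2 against WT, and a fit of only the groups compared called 0 for Tg2 against WT. On leaving out each library they were 0 to 25 for WT, 16 to 83 for Tg1 and 0 to 1878 for Tg2 against NC, and 0 to 2421 for Tg2 and 0 to 1321 for Tg3 against WT. The highest counts for WT against NC and for both comparisons with WT came without WT replicate 2. A fit that leaves a group with 2 libraries has less precision, and the causes of these shifts were not tested.

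Sign turned on leaving out 1 library, with low and high log2 fold changes of -0.059 and 0.23 for CEP152, -0.033 and 0.075 for KIF20A and -0.027 and 0.12 for FEN1 in Tg1 against NC. In Tg2 against NC these were -0.12 and 0.064 for SASS6, -0.038 and 0.094 for ECT2, -0.033 and 0.018 for ANLN, -0.20 and 0.031 for CEP55 and -0.050 and 0.0062 for CDK1. Over the 108 list counts and named genes, 959 of 1188 alternative values stayed the same. For a gene this means the same direction and side of the threshold. For a count it means no call in either fit or a change of at most 1.5 times. Of the rest, 118 lost a call, 6 gained one, 89 counts moved further and 16 reversed. With totals of 20216200 to 26132196 counts, each library held at least 800 counts of either gene.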
